A study of Mus musculus with 2 samples.

Results

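The transcripts of 10 regulators of epithelial and mesenchymal state were followed in Mlesico and Mle29c, which the labels describe as 2 epithelial lines of mouse. Members were chosen by gene symbol: every probe set (a group of short probes for 1 transcript) whose single platform symbol is Snai1, Snai2, Twist1, Zeb1, Zeb2, Prrx1, Esrp1, Esrp2, Grhl2 or Ovol1. They comprise 28 of the 34945 probe sets that list a single gene, and 10 of 18193 genes. Each line was measured on 1 array, from total RNA of cells grown in DMEM with 10% FBS. The labels name no treatment. They do not say how Mle29c was made, which way miR-29c was altered in it, or whether a line is 1 clone. The title of the series is about miR-29c and pulmonary fibrosis.

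Loss of epithelial character, called epithelial to mesenchymal transition (EMT), is driven by transcription factors that silence junction genes. The Snail (Snai1), Slug (Snai2) and Zeb proteins repress the E-cadherin gene Cdh1 through E-boxes, short DNA motifs, while Twist1 and Prrx1 switch on mesenchymal genes. On the other side, Grhl2 and Ovol1 are transcription factors that hold the epithelial state, and Esrp1 and Esrp2 are RNA-binding proteins that set the epithelial splice forms of transcripts such as Fgfr2 and Cd44. In the lung, this balance is studied in repair of the alveolar epithelium and in fibrosis.

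Messenger RNAs of the Zeb factors are known targets of the miR-200 family, which the arrays did not measure. The mature sequences are shown from RefSeq (GRCm38.p6), with bases 2 to 8, the seed that pairs with targets, in capitals, because miR-29c gives the second line its name and the miR-200 family is the best-known microRNA control of Zeb1 and Zeb2. The 6 microRNAs carry 3 seeds: that of miR-29c, one shared by miR-200a and miR-141, and one shared by miR-200b, miR-200c and miR-429.
mmu-miR-29c-3p: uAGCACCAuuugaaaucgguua
mmu-miR-200a-3p: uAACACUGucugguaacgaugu
mmu-miR-141-3p: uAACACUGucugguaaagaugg
mmu-miR-200b-3p: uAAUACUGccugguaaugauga
mmu-miR-200c-3p: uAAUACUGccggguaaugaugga
mmu-miR-429-3p: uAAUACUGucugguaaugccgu

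The deposited values are logarithms, read here as log2 although no base is stated, and were centred on the midpoint of both arrays, so the 2 values of a probe set mirror each other around 0. The log2 ratio subtracts the Mlesico value from that of Mle29c. A ratio of 1 or more in size is a 2-fold difference. The centring removed the absolute level, and a level class was recovered from rounding: high for a mean log2 signal of 8 or more, middle for 4 to 8, low below 4. Classes came from the sum of both values or, where that sum was 0, from the rounding step, which is less certain and can place a probe set too high. The class describes the mean of both arrays, so where the difference is wide the lower array can lie below a log2 signal of 4, where values are not reliable, and the fold is then only the ratio of the deposited values. A gene was called measured with at least 1 probe set in the high or middle class, and its value is the median over those probe sets. With 1 array per line there is no replicate spread and no p-value. The SD between probe sets of a gene, pooled over 6903 genes, was 0.618 on the log2 scale, and it leaves out differences between cultures. In RNA of whole cultures, fewer cells expressing a gene and less RNA per cell cannot be told apart.

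Across the arrays, 14827 genes were measured, with a median log2 ratio of 0.00. The background for all counts below is a share of 8.41% of measured genes past 2-fold towards Mle29c and of 7.18% past 2-fold towards Mlesico, 15.6% in all. Low-class probe sets differed by 2-fold or more in 58.2% of cases, against 22.7% in the middle and 11.6% in the high class. Of 10 epithelial markers 8 were measured, with Krt8, a keratin of simple epithelia, in the high class, whereas Cldn4 and Ocln had low-class probe sets alone. Of these 8, 1 was at least 2-fold higher (Cdh1, 1.46) and 1 lower (the keratin gene Krt7, -1.20). Of 5 lung epithelial markers on the array all 5 were measured and 3 were at least 2-fold higher, with a median of 1.66: Scgb1a1, the club cell secretory protein gene, at 2.35, and the surfactant protein genes Sftpb at 2.13 and Sftpc at 1.66. Nkx2-1 stood at 0.31 and Abca3 at 0.35. Of 6 fibroblast markers all 6 were measured, with 1 at least 2-fold lower and ratios from -3.41 for Col1a1 to 0.67 for Lum. Of 4 leukocyte markers 3 were measured, with 1 at least 2-fold higher, and the pan-leukocyte gene Ptprc was in the low class. Of 4 endothelial markers 3 were measured, with 1 at least 2-fold lower, and Pecam1 was in the low class. Their part in the member values was not tested.

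Prrx1, Snai2 and Esrp1 were at least 2-fold lower in Mle29c. No member was at least 2-fold higher, 6 lay within 2-fold, and Twist1 was not measured. The members past 2-fold did not divide by side. Prrx1 and Snai2 belong to the mesenchymal side, and Esrp1 belongs to the epithelial side. Of the 28 member probe sets, 11 were at least 2-fold lower and 2 at least 2-fold higher, against 11.7% and 12.7% of all probe sets of a single gene. Prrx1 alone gave 6 of the 11, so these counts mostly describe a few genes. By level class, 6 of the 28 were high, 17 middle and 5 low. Among all probe sets, 11.6% of the high, 22.7% of the middle and 58.2% of the low class passed 2-fold. The part of signal level in the member counts was not tested. The plot of probe sets by gene shows the spread.

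**Figure D1:**
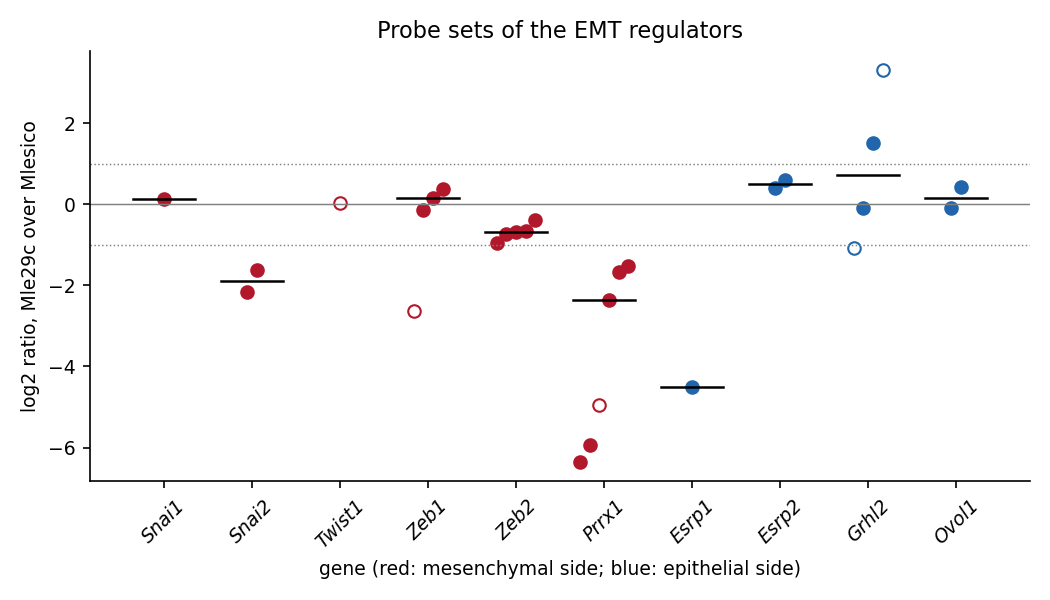
Log2 ratio of Mle29c over Mlesico (vertical axis) for each of the 28 probe sets of the 10 genes (horizontal axis). Filled points are in the high or middle level class, open points in the low class, black bars are the gene values, and dotted lines mark 2-fold. All 6 Prrx1 probe sets and both Snai2 probe sets lie below the lower dotted line, while the 4 Grhl2 probe sets lie on both sides of 0.

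Prrx1, a paired-related homeobox factor of mesenchymal cells, was lower in Mle29c in all 6 of its probe sets. The widest difference was in probe set 1425528_at, with a centred value of 3.18 in Mlesico and -3.18 in Mle29c. Probe set 1425526_a_at stood at 2.97 and -2.97, and the low-class probe set 1439774_at at 2.47 and -2.47. These 3 probe sets had log2 ratios of -6.35, -5.94 and -4.95. The other 3 differed less, with centred Mlesico values of 1.18, 0.83 and 0.76 and log2 ratios of -2.37, -1.66 and -1.51. Mlesico was the higher array in each of them, and the probe sets fell into a wide and a narrow group. The gene value was -2.37, or 5.15-fold lower, with an SD of 2.38 between its 5 measured probe sets, far above the pooled 0.618. It was the 246th lowest of 14827 genes. The size is therefore uncertain: it was -3.66 over every probe set and -6.15 over the 2 measured probe sets whose class came from the sum. Those 2, at -6.35 and -5.94, are in the middle class. With spreads this wide their Mle29c signal may not be above background, so the size of their folds is not settled. The place of each probe set in the transcript was not used here.

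Snai2 encodes the zinc finger repressor Slug. Its probe set 1418673_at had centred values of 1.08 in Mlesico and -1.08 in Mle29c, and 1447643_x_at had 0.81 and -0.81. Both were higher in Mlesico, with log2 ratios of -2.15 and -1.63. The gene value was -1.89, or 3.71-fold lower, with an SD of 0.37 between probe sets. For the first probe set, whose class came from the sum, the rounding puts the Mlesico log2 level at 5.08 or more, a signal of at least 33.7. Snai1, which encodes the related repressor Snail, had 1 probe set, at -0.07 in Mlesico and 0.07 in Mle29c. Its log2 ratio of 0.13 is well within the pooled SD between probe sets. The difference between the Snai1 and Snai2 ratios was 2.02 on the log2 scale.

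The Zeb genes encode large repressors with zinc finger clusters and a homeodomain. Zeb2 was higher in Mlesico in all 5 probe sets, all measured, with log2 ratios of -0.95, -0.73, -0.69, -0.66 and -0.38. Their centred Mlesico values ran from 0.19 to 0.48. The gene value was -0.69, or 1.61-fold lower, with an SD of 0.20, so the probe sets shared a direction without reaching 2-fold in any of them. Zeb1 differed less: its 3 measured probe sets had ratios of -0.14, 0.16 and 0.37, on both sides of 0, with centred Mlesico values of 0.07, -0.08 and -0.18. Its gene value was 0.16. All 3 measured Zeb1 probe sets were classed by the less certain rounding step, so the gene has no value with the class from the sum. The other Zeb1 probe set, in the low class, stood at 1.32 in Mlesico and -1.32 in Mle29c, a ratio of -2.64. With it the gene value was 0.01. Zeb1 minus Zeb2 was 0.85 on the log2 scale.

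Twist1, a basic helix-loop-helix factor that promotes mesenchymal genes, had 1 probe set, in the low class, with centred values of -0.02 in Mlesico and 0.02 in Mle29c. Its ratio of 0.04 is close to 0, but at this level a difference cannot be read.

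Esrp1 had the widest gene value among the members. Its single probe set stood at 2.25 in Mlesico and -2.25 in Mle29c, a log2 ratio of -4.51, a nominal 22.8-fold. With a mean of 4 to 8 and this spread, the Mle29c signal may not be above background, so the size of the fold is not settled. It was the 42nd lowest of 14827 genes. The probe set was in the middle class by the rounding step, so the gene has no value with the class from the sum, and no other probe set of the gene was there to set beside it. Esrp2, its paralog with overlapping splicing activity, was higher in Mle29c in both probe sets, with centred Mle29c values of 0.30 and 0.20 and ratios of 0.60 and 0.40. The gene value was 0.50, or 1.41-fold, with an SD of 0.13 between its 2 probe sets. It was below the pooled SD of 0.618. Esrp2 minus Esrp1 was 5.01 on the log2 scale in these arrays. Most of this is the Esrp1 value, whose size is not settled, while the Esrp2 value is small beside it.

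Grhl2, a grainyhead-like factor that activates Cdh1 and claudin genes, had probe sets that disagreed. The 2 measured ones had centred Mlesico values of -0.75 and 0.04, with ratios of 1.51 and -0.09. Those in the low class had -1.65 and 0.53 in Mlesico, with ratios of 3.30 and -1.07. The gene value of 0.71 (SD 1.13) therefore has no settled direction. Grhl2 lies on chromosome 15, whose measured genes had a median of 0.36, and relative to that median it stood at 0.35. Ovol1, a zinc finger factor that represses Zeb1, had ratios of 0.42 and -0.10 in its 2 probe sets, with centred Mlesico values of -0.21 and 0.05. Its gene value of 0.16 turned to -0.11 relative to its chromosome, 19, whose median was 0.27. Both Ovol1 probe sets were classed by the less certain rounding step, so the gene has no value with the class from the sum. The plot of all measured genes shows where the 9 measured members fall.

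**Figure D2:**
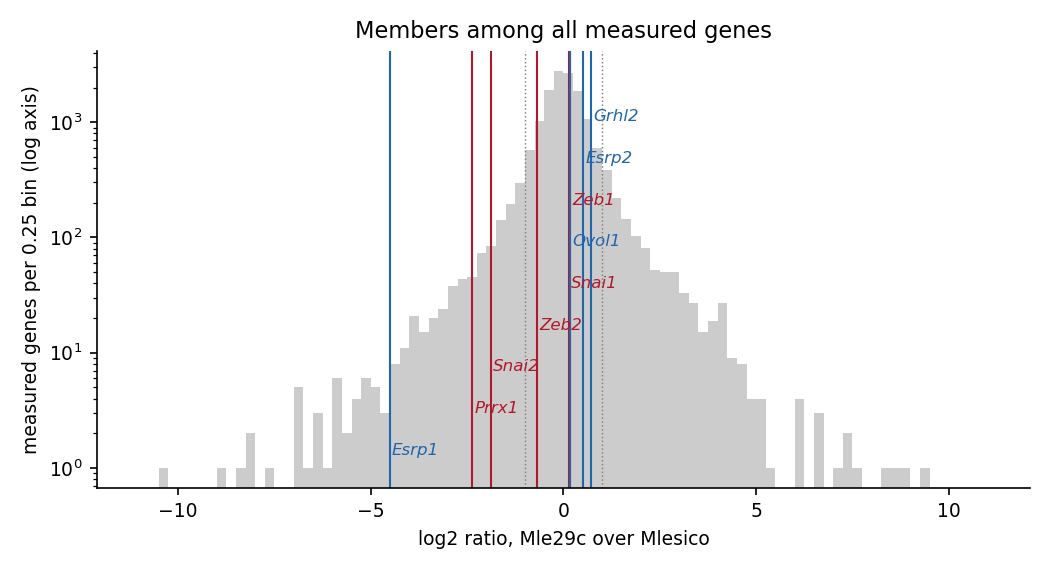
Histogram of the log2 ratio of Mle29c over Mlesico (horizontal axis) for 14827 measured genes, with genes per bin on a log axis. Vertical lines mark the 9 measured members, red for the mesenchymal and blue for the epithelial side, and dotted lines mark 2-fold. Esrp1, Prrx1 and Snai2 lie beyond the lower dotted line and no member lies beyond the upper one.

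Paralogs of the members were past 2-fold in 1 case, Ovol2. Of 8 on the array 7 were measured, and 1 was at least 2-fold higher and 0 lower, a share of 14.3% against 15.6% of all measured genes. Ovol2, which represses Zeb1 and other EMT genes, stood at 1.26 from 1 probe set. Snai3 stood at 0.64, Twist2 at 0.31, Grhl1 at 0.59 and Grhl3 at -0.53. The Scratch repressor genes Scrt1 and Scrt2, relatives of the Snail genes, stood at -0.37 and 0.57, and Prrx2 had a single low-class probe set at 1.48. Ovol3 was not analysed here.

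Other transcription factors that promote the mesenchymal state had 1 of 22 measured genes higher and 1 lower, with a median of -0.10. Foxc1, a forkhead factor, was at 1.60 in 2 probe sets (1.49 and 1.71), and Fosl1, a subunit of the AP-1 complex, was at -1.93. Of 19 other factors that hold the epithelial state, 4 were higher and 1 lower (median -0.04). Beside Ovol2, given above, Cebpa, a factor of alveolar type 2 cell maturation, stood at 3.26 from 1 probe set, classed by the rounding step. The Ets factor gene Elf5 stood at 1.28, but at -0.65 with its low-class probe set kept. The nuclear receptor gene Hnf4a was at -1.47, from the 1 measured of its 4 probe sets. With the class from the sum alone, 2 genes of this epithelial list were higher and 0 lower.

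Corepressors and enzymes that act on the Snail and Zeb proteins were close to 0. Of 30 measured genes, 29 lay within 2-fold, with a median of -0.06 and 1 higher, the phosphatase gene Ctdspl at 1.03. The share past 2-fold was 3.33%, against 15.6% of all measured genes. Most probe sets of these 30 genes were in the high class. In that class 11.6% of all probe sets passed 2-fold, against 22.7% in the middle class. The part of signal level in the low share was not tested. The list includes the cofactors Ctbp1 at 0.04, Hdac1 at 0.00 and Kdm1a at -0.22, and the kinase gene Gsk3b, whose product marks Snail for decay, at -0.12.

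Epithelial genes known to be repressed by Snail and Zeb factors lay on both sides of 0. Of 32 genes on the array 23 were measured, of which 4 were higher and 3 lower (median 0.08). Cdh1 had a centred value of -0.73 in Mlesico and 0.73 in Mle29c, a ratio of 1.46, and the tight junction genes Marveld2 and Marveld3 stood at 3.24 and 1.63. Against these, the desmosome gene Dsp was at -2.08, the polarity gene Llgl2 at -1.62 and the tight junction scaffold gene Tjp3 at -1.11. All 3 of these lower genes, and Marveld2 among the higher ones, were classed by the less certain rounding step alone. With the class from the sum alone, 3 genes of the list were higher and 0 lower. Epcam, an epithelial adhesion molecule, was at -0.52 with both probe sets below 0 (-0.84 and -0.20). The remaining 9 genes had low-class probe sets alone.

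Mesenchymal genes were as mixed, with 3 of 19 measured genes higher, 3 lower and a median of 0.13. Mmp2, a matrix protease, was at -4.48 from its measured probe set and at -6.09 in its low-class one. Cdh2, which encodes N-cadherin, stood at -1.19, with centred Mlesico values of 0.65 and 0.54 in its 2 high-class probe sets and ratios of -1.30 and -1.08. Tgfbi was at -2.39, but at 0.70 over all 4 of its probe sets. Postn, which encodes periostin, stood at 2.39, the calcium-binding protein gene S100a4 at 1.71 and Fn1, which encodes fibronectin, at 1.08, with probe sets at 0.93 and 1.23. The vimentin gene Vim was at 0.30. So Cdh1 was higher and Cdh2 lower in Mle29c, while Fn1 was higher. As the plot of related lists shows, both the epithelial and the mesenchymal list had members past 2-fold in each direction. This rests on classes from the rounding step: with the class from the sum alone, 0 mesenchymal genes were higher and 1 was lower, and of the 6 genes past 2-fold only Cdh2 (-1.30) and Fn1 (0.93) had a value.

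**Figure D3:**
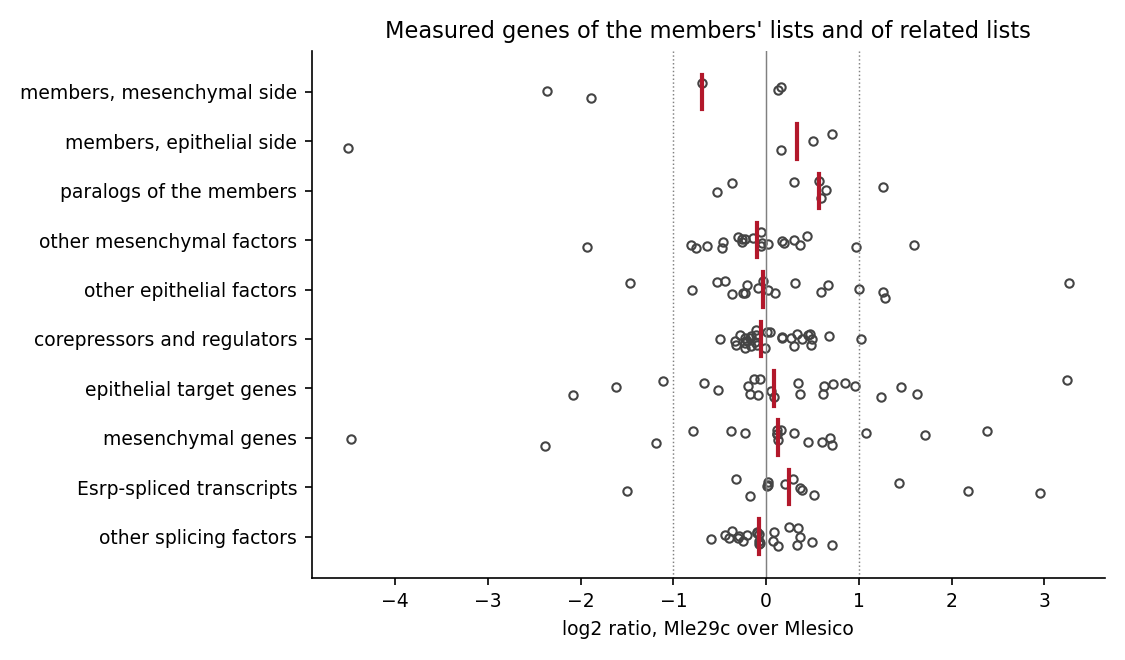
Log2 ratio of Mle29c over Mlesico (horizontal axis) for each measured gene (open circles) of the member groups and 8 related lists (rows, spread vertically at random for legibility); red bars are list medians and dotted lines mark 2-fold. The medians of the 8 related lists run from -0.10 to 0.57, and the lists of corepressors, paralogs and other splicing factors have no gene past 2-fold on the lower side.

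Promoters were read for E-boxes, since the Snail and Zeb proteins bind them. The letters searched were CAGGTG and its reverse complement CACCTG, in the 250 bases before each RefSeq start (GRCm38.p6). The table held 4 of the 10 members, Snai1, Twist1, Zeb2 and Prrx1, in 7 windows, of which 1 had a match. Of all 32851 windows, 17.2% had one. Among epithelial target genes, 16 of 27 windows (59.3%) had one, but this list was made of genes reported as repressed by these factors, so the share is not independent. A match is a description and not a bound site. These windows covered 20 of the 32 target genes. Cdh1 (1.46), Marveld3 (1.63) and Itgb4 (1.24), all at least 2-fold higher, had no window, nor did Llgl2 (-1.62), which was lower. Of the 20 genes covered, 14 had an E-box in some window. The 10 measured among these 14 had a median log2 ratio of -0.13, from -1.11 for Tjp3 to 0.72 for Crb3. The 5 measured genes with a window but no E-box had a median of 0.36, from -2.08 for Dsp to 3.24 for Marveld2. The lists are small and their ranges overlap. The sequences below show the E-box of Snai1, whose ratio was 0.13, the window of Prrx1, the mesenchymal member with the lowest value, and epithelial targets with 3 and 2 matches: Crb3, a polarity gene, and Epcam. Each is 250 bases, 5′ to 3′ on the strand of the gene, with E-boxes in capitals. The Snai1 match lies 126 to 121 bases before the start, and the Prrx1 window has none.
Snai1, chr2:167537945-167538194, plus strand: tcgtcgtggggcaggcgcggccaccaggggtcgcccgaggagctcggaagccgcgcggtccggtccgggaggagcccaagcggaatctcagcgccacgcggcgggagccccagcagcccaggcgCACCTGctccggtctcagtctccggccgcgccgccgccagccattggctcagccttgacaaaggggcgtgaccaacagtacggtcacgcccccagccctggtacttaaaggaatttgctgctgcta
Prrx1, chr1:163313651-163313900, minus strand: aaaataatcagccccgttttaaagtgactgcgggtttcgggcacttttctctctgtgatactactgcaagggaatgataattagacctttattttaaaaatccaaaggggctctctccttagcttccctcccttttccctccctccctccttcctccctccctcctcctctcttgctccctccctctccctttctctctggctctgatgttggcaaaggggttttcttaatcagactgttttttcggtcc
Crb3, chr17:57061951-57062200, plus strand: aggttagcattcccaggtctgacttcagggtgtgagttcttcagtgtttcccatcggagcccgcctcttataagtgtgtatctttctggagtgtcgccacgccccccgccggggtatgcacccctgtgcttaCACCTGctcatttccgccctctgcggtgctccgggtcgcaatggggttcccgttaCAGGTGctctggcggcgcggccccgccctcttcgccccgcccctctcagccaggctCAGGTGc
Epcam, chr17:87635729-87635978, plus strand: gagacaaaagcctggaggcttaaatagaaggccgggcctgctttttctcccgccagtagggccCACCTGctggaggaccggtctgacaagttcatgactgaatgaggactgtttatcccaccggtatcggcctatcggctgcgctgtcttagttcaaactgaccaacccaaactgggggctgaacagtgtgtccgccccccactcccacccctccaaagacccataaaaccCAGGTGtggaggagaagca

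Transcripts that Esrp1 and Esrp2 are known to splice were measured for all 14 genes listed. Of these, 3 were at least 2-fold higher, 1 was lower, and the median was 0.25. Osbpl3, an oxysterol-binding protein gene, stood at 2.96, the receptor gene Fgfr2 at 2.17 and the scaffold gene Magi1 at 1.43, while the integrin gene Itga6 was at -1.50. Fgfr2 had ratios of 2.89, 2.17 and 0.05 in its 3 probe sets. In the probe set at 2.17, of the high class by the sum, the centred values were -1.09 in Mlesico and 1.09 in Mle29c. Cd44, a hyaluronan receptor gene, had ratios of 0.07, 0.08, 0.50 and 1.64, so 3 of 4 probe sets lay within 2-fold and 1 did not. Ctnnd1, which encodes p120 catenin, was at 0.00 with probe sets from -0.10 to 0.15, and Enah, an actin regulator, at 0.37 with 6 probe sets from -0.24 to 0.79. Probe sets of 1 gene can differ because they read different exons, but the exons they read were not used here, so splice forms were not analysed here. The plot of these transcripts shows each probe set.

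**Figure D4:**
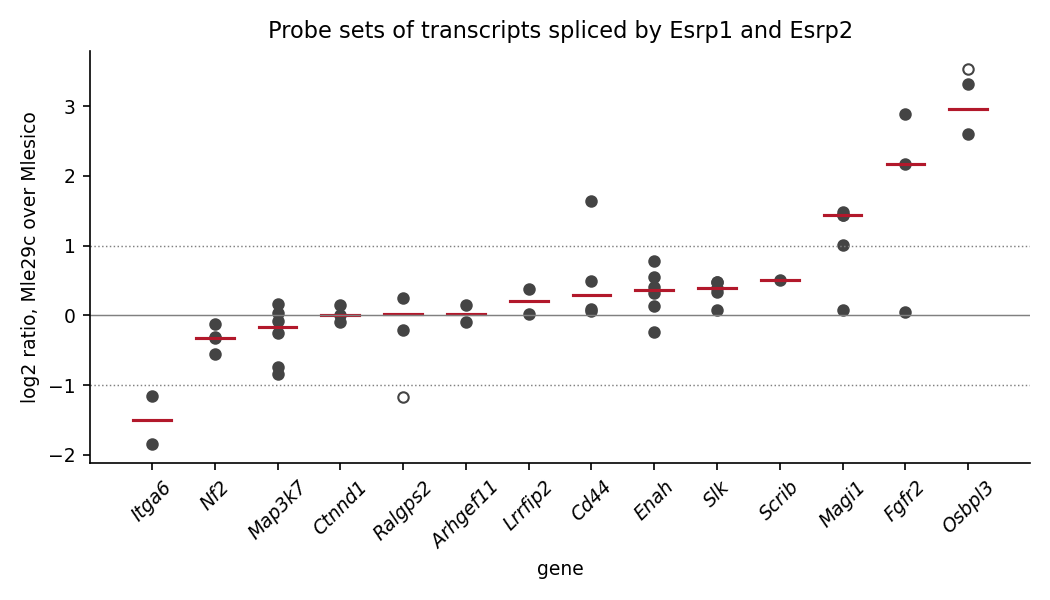
Log2 ratio of Mle29c over Mlesico (vertical axis) for every probe set of the 14 transcripts known to be spliced by Esrp1 and Esrp2 (horizontal axis, ordered by gene value). Filled points are in the high or middle class, open points in the low class, red bars are gene values and dotted lines mark 2-fold; the probe sets of Fgfr2 span 0.05 to 2.89 and those of Ctnnd1 stay between -0.10 and 0.15.

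Other splicing factors of epithelial and mesenchymal programs lay within 2-fold in all 23 measured genes as valued here, with a median of -0.08. The share past 2-fold was 0%, against 15.6% of all measured genes. Most probe sets of this list were in the high class, in which 11.6% of all probe sets passed 2-fold. The part of signal level in this share was not tested. Gene values ran from -0.59 for the polypyrimidine tract protein gene Ptbp3 to 0.71 for Rbm24. The Rbm24 value depended on its probe sets: the 2 measured ones stood at 1.43 (high class) and -0.01, and the gene stood at 1.43, past 2-fold, in the high class or over every probe set. Rbfox2, a factor of mesenchymal splicing, stood at 0.33 with 4 probe sets from 0.03 to 0.78, and Rbm47, of epithelial splicing, at -0.37.

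The gene values depended on which probe sets were kept, as the plot of alternatives shows. Over 45 values from 6 alternatives, 43 kept the sign of the reported value and 41 moved by less than the pooled SD between probe sets. The exceptions in sign were Grhl2, at -0.09 where the class had to come from the sum, and Ovol1, at -0.11 relative to its chromosome. The largest moves were those of Prrx1. Snai2 stayed between -2.15 and -1.86.

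**Figure D5:**
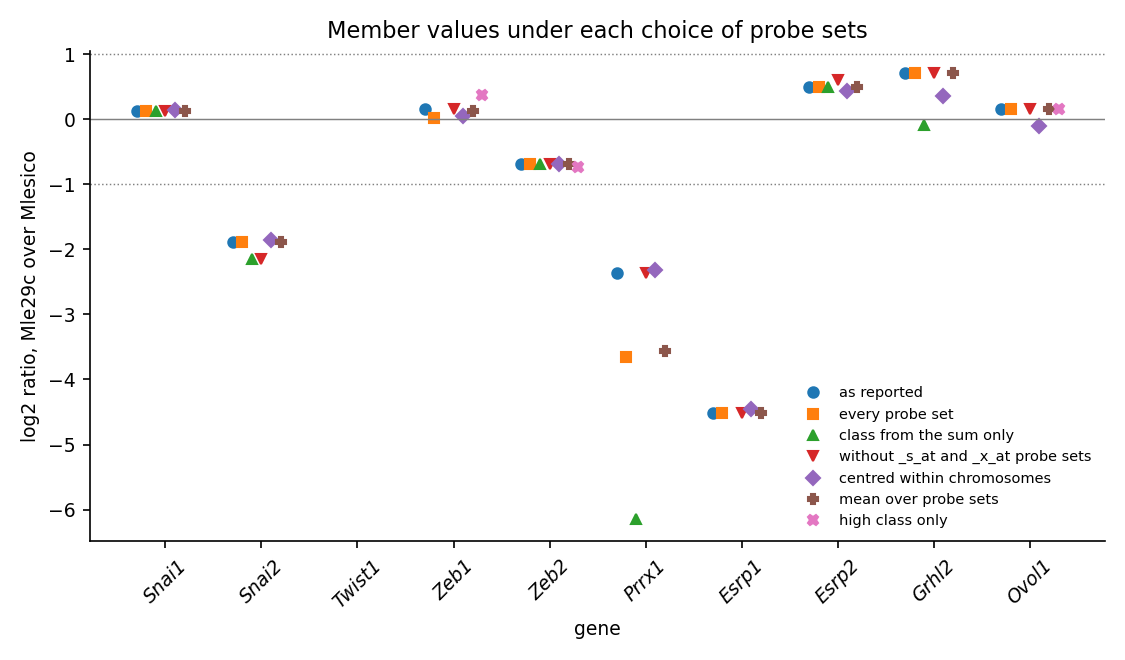
Log2 ratio of Mle29c over Mlesico (vertical axis) for each member (horizontal axis) as reported and under 6 other choices, 1 marker shape each; dotted lines mark 2-fold, and Twist1, with a low-class probe set alone, has its 1 value at 0.04 in the probe set plot. Snai2, Prrx1 and Esrp1 lie below -1 under each choice that gives them a value, and Prrx1 ranges from -6.15 to -2.32.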

How the data were processed

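Total RNA of Mlesico and of Mle29c cells was hybridised to 1 expression array each. Per the submitters' processing notes, signals came from MAS5, a summary over the probes of each probe set; its version is not stated. The deposited values were on a log scale taken as log2, and the authors centred them so that both values of a probe set sum to 0 within 1e-06. Were the log natural, every fold would be larger than printed. Gene symbols came from the 2016 annotation of the platform, and 34741 of 34945 probe sets were updated through a GRCm38.p6 gene table. Level classes held 19470 high, 14380 middle and 11004 low probe sets, and 247 tied or unclassed. The classing was tested on data simulated with the same rounding. An accuracy was required there only of high and middle classes from the sum, not of classes from the rounding step. No value column was left unused. The number of arrays limits the precision, and no test was possible with 1 array per line. Members, lists and named genes (all members, up to 3 genes a side past 2-fold in each list, and preset readouts, markers and paralogs) were chosen with earlier results of these data known. A few further list genes (Ctbp1, Hdac1, Kdm1a, Gsk3b, Crb3, Rbfox2 and Rbm47) were named after their values were seen. Alternatives were every probe set, the high class, the class from the sum, no _s_at or _x_at probe sets, centring by chromosome, the mean, and 1.5-fold or 4-fold. Python 3.11.15 with numpy 2.4.6 and pandas 2.3.3 was used.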

Additional observations from a re-analysis of the deposited data

How the results depend on the processing

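Counts and medians moved with the probe sets and the threshold. Members at least 2-fold higher numbered 1 at 1.5-fold, and those lower numbered 0 in the high class, which holds no probe set of Snai2, Prrx1 or Esrp1. The mesenchymal members had a median of -1.42 with the class from the sum, and the paralogs of -0.45 in the high class. Of 152 measured related genes, 16 were at least 2-fold higher and 9 lower, against 8.41% and 7.18% of all measured genes. Those higher numbered 10 with the class from the sum, 30 at 1.5-fold and 5 at 4-fold. Those lower numbered 5 in the high class, 4 with the class from the sum, 16 at 1.5-fold and 3 at 4-fold. Of all genes, 16.6% were higher at 1.5-fold and 2.66% at 4-fold, while 15.1% and 2.31% were lower, and with every probe set kept 12.4% were 2-fold higher and 10.9% lower. A setting that keeps fewer genes or moves the threshold changes a count by its construction; no other cause was tested. Of the counts, shares and medians followed in this way, 76 stayed close to the reported value and 16 moved. For a count or share, close means within 1.5 times the reported one, as the 12.4% was. For a median it means within the pooled SD between probe sets. No paired analysis was possible because each line has 1 array. Low signal limits Twist1 and the low-class probe sets. It may also limit the Mle29c side of Esrp1 and of the widest Prrx1 probe sets, which are in the middle class.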
